A study of Mus musculus with 4 samples.

Results

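The interleukin-12 family was followed through 4 RNA sequencing libraries of mouse regulatory T cells, the CD4+ lineage defined by Foxp3 that holds other immune cells in check. The family was taken by gene symbol as 10 genes, 5 cytokine subunits and 5 receptor chains, of the 50600 genes in the deposited tables, and all 10 were found there. The libraries form a single group, labelled biological replicates 1 to 4 of primary regulatory T cells from strain C57BL/6NJ, with no contrasting condition. The age is labelled unknown and the sex not collected, and all 4 biosamples carry the same donor record. The levels of sex-linked genes given further on go against a single animal as the source of all 4. Within libraries 1 and 2, and within 3 and 4, no label states separate animals or cultures, so the p-values here measure only how these samples spread, and the spread within those pairs may be technical. A differentiation protocol for CD4+ T cells is linked in the labels, and the sample names inside the files add that the cells were activated, sorted and taken at 72 h.

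Cytokines of this family are secreted as pairs of an alpha and a beta subunit encoded by separate genes, so that a cell needs both genes to make one cytokine. The p40 subunit (Il12b) pairs with p35 (Il12a) in IL-12 and with p19 (Il23a) in IL-23, whereas EBI3 (Ebi3) pairs with p28 (Il27) in IL-27 and with p35 in IL-35. A pairing of EBI3 with p19, named IL-39, has been described in mouse. IL-12 and IL-23 are made mainly by dendritic cells and macrophages and drive Th1 and Th17 responses, IL-27 restrains T cells in several settings, and IL-35 is known as a cytokine of regulatory T cells. The receptors also share chains. IL-12Rb1 (Il12rb1) joins IL-12Rb2 (Il12rb2) for IL-12 and IL-23R (Il23r) for IL-23, and gp130 (Il6st) joins IL-27Ra (Il27ra) for IL-27. For IL-35, a receptor of IL-12Rb2 with gp130 has been described in mouse T cells.

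The libraries held 46044354, 72147632, 94983494 and 32648138 counts in replicates 1 to 4. T cell and regulatory T cell markers matched the label, with all 9 at or above 1 TPM (a level per length of gene, scaled to the same sum in each library) in every library and Foxp3 at 433 to 495 TPM. Libraries 1 and 2 stood apart from 3 and 4 in sex-linked genes: Xist, the RNA that silences an X chromosome, measured 312, 331, 0.539 and 2.38 TPM in replicates 1 to 4, and the Y-linked Ddx3y 0.0664, 0.0264, 26.0 and 31.2 TPM. Eif2s3y, Uty and Kdm5d, also Y-linked, divided the libraries in the same way. Replicate 1 stood apart in Malat1, a nuclear RNA, at 131 TPM against 42.5 to 55.2 TPM in the others. Gm42418, a locus that carries ribosomal RNA sequence, measured 11891, 4335, 2980 and 1555 TPM in replicates 1 to 4 and was called for excess variation (edgeR goodness-of-fit test, adjusted p = 7.64e-38).

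The promoters of Ebi3, Il12b and Il12rb2 are shown because these genes were the most abundant cytokine subunit, the subunit without a count, and the chain that the IL-12 receptor does not share with the IL-23 receptor. Each stretch runs from 250 bases before to 50 bases after the annotated start in RefSeq (build GRCm38.p6), 5′ to 3′ on the strand of the gene. RefSeq promoters matched 6 of the 10 genes. The stretch for Ebi3 is chr17:55952373-55952672 on the plus strand, that for Il12b chr11:44399813-44400112 on the plus strand and that for Il12rb2 chr6:67376139-67376438 on the minus strand. Capitals mark matches, on either strand, to a loose NF-kappaB pattern 10 bases long, a run of G spaced by any bases from a pair of C, or to the GAS pattern TTCNNNGAA, of the kind STAT factors bind.
Ebi3: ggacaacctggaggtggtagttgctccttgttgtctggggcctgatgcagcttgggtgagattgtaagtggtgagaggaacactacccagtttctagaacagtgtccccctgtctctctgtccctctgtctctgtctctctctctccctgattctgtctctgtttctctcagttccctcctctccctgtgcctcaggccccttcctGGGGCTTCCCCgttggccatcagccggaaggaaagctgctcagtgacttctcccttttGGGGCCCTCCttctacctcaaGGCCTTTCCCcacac
Il12b: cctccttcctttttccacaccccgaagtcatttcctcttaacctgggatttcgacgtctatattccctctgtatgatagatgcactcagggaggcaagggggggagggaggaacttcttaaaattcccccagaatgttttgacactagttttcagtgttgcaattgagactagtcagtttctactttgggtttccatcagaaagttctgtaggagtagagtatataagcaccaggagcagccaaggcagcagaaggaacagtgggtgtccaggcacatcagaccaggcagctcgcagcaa
Il12rb2: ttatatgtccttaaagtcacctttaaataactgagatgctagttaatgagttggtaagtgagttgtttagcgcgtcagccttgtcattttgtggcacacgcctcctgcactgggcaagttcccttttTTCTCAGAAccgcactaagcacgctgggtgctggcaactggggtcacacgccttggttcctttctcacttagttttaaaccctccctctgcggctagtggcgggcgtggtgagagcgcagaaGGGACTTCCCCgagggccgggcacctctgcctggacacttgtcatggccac
The Ebi3 stretch held 4 matches to the NF-kappaB pattern, of which a pair overlap at -44 to -35 and -43 to -34 from the start, and the Il12b stretch held none. This pattern is common, held by 50.8% of the 32851 RefSeq promoters of this length. The Il12rb2 stretch held 1 match to the GAS pattern, TTCTCAGAA at -123 to -115, which 8.30% of promoters hold, and a pair of overlapping NF-kappaB matches at the start itself. Neither the AP-1 pattern TGANTCA (in 7.81% of promoters) nor TATAAA (in 13.6%) was found in these 3 stretches, and the NFAT core GGAAA, present in 61.3% of promoters, was found in the Ebi3 and Il12b stretches. These are matches of letters in a window and do not show that a factor binds there.

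Among the cytokine subunits, Ebi3 was abundant and the other subunits lay at or below 1.62 TPM in every library. Ebi3 (ENSMUSG00000003206.6, chromosome 17, 55952623 to 55957021 in mm10) measured 225, 211, 238 and 247 TPM in replicates 1 to 4, a mean of 230 ± 15.7 TPM (SD, n = 4). No library strayed far from the others, and the highest was 1.17-fold above the lowest. The mean lay above that of 96.7% of protein-coding genes. Ebi3 alone made up 99.2% to 99.6% of the summed TPM of the 5 cytokine subunits in each library. An antisense gene, Gm16712, overlaps Ebi3 on the other strand and held only 22 to 57 counts per library. The protein-coding genes closest to Ebi3 in level, by Euclidean distance of log2(TPM + 1) over the 4 libraries, were Imp3 (228 TPM in the mean), Rpl35a (229 TPM) and Dbi (230.3 TPM).

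Il27, the p28 partner of EBI3 in IL-27, held 0, 4, 0 and 2 counts in replicates 1 to 4. The libraries with counts stood at 0.179 TPM (replicate 2) and 0.195 TPM (replicate 4), and a count of 0 allowed up to 0.203 TPM in replicate 1 and 0.0996 TPM in replicate 3, taking 3 counts as the limit. Intervals and limits of this kind cover counting error only. Ebi3 exceeded Il27 by 7.73 ± 0.18 on the log2(TPM + 1) scale (SD, n = 4), higher in 4 of 4 libraries. As a ratio of TPM, Ebi3 was at least 1108-fold higher in replicate 1 and at least 2387-fold higher in replicate 3. The ratio was 1179 in replicate 2 (95% counting interval 460.4 to 4330.1) and 1269 in replicate 4 (351 to 10486). The log2(TPM + 1) scale compresses such differences because the second gene is close to 0.

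Il12a, which encodes p35, the subunit shared by IL-12 and IL-35, was detected in every library at a low level. It measured 1.62, 1.24, 0.797 and 0.468 TPM in replicates 1 to 4, from 40, 46, 40 and 8 counts. Replicates 1 and 2 lay above 1 TPM and replicates 3 and 4 below it. Gm42418 has its libraries in the same order, and its part in the Il12a values was not tested. The exact 95% Poisson interval ran from 1.16 to 2.21 TPM in replicate 1 and from 0.202 to 0.922 TPM in replicate 4. The highest value was 3.47-fold above the lowest, and the spread did not pass the test for excess variation described further on (edgeR goodness-of-fit test, adjusted p = 0.9999). Ebi3 exceeded Il12a by 6.86 ± 0.45 (log2, SD, n = 4). In TPM this was 138-fold in replicate 1 (95% counting interval 101 to 194), 171-fold in replicate 2, 298-fold in replicate 3 and 529-fold in replicate 4 (268 to 1226).

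Il23a, the p19 subunit of IL-23, measured 0.246, 0.285, 0.543 and 0.399 TPM in replicates 1 to 4, from 8, 14, 36 and 9 counts. It lay below Il12a in 4 of 4 libraries, but the ranges of these genes over libraries overlapped. Ebi3 exceeded Il23a by 7.40 ± 0.10 (log2, SD, n = 4). Il12b, the p40 subunit that both IL-12 and IL-23 need, had no count in any library. This allowed at most 0.105, 0.0697, 0.0517 and 0.152 TPM in replicates 1 to 4. Against that limit of 3 counts per library, Il12a was at least 3.08-fold higher in replicate 4 and at least 15.4-fold to 17.7-fold higher in the other 3. Il23a was at least 2.33-fold to 10.5-fold higher than Il12b across the libraries. Among the pairs of IL-12, IL-23, IL-27 and IL-35, only Ebi3 with Il12a, the pair of IL-35, had counts for both subunits in all 4 libraries. Ebi3 and Il23a, the pair described as IL-39, were likewise both counted in all 4. These are transcripts, and no protein was measured.

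**Figure D1:**
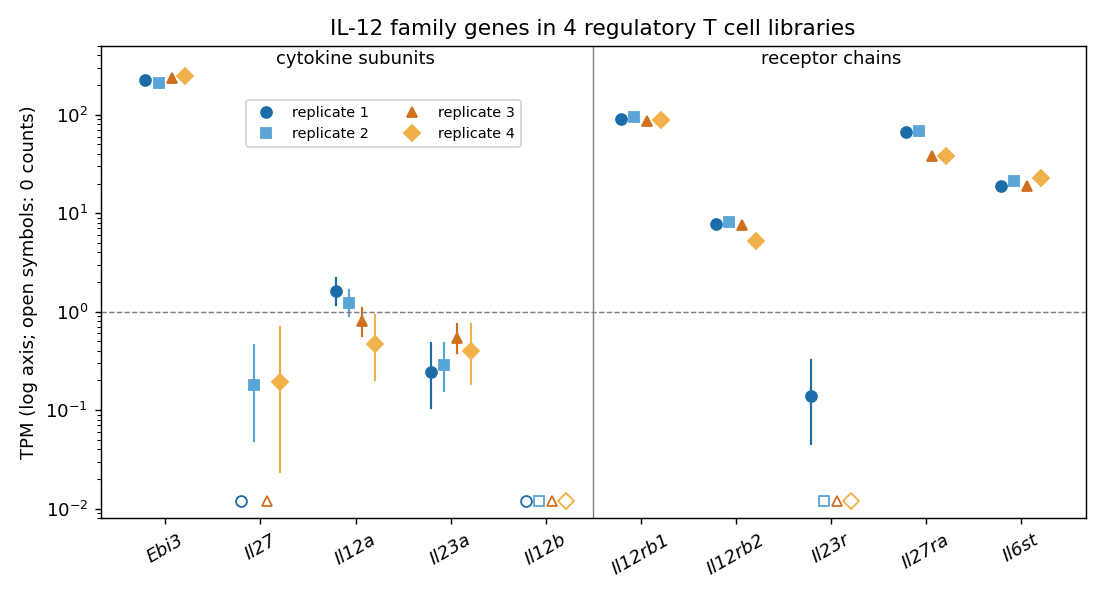
TPM (log axis) of the 5 cytokine subunits and 5 receptor chains in replicates 1 to 4; vertical lines are exact 95% Poisson intervals of the counts, open symbols, drawn at a fixed height, mark 0 counts and the dashed line 1 TPM. Ebi3 lies above 200 TPM in every library while the other subunits lie below 2 TPM, and Il27ra is the receptor chain whose libraries separate into a higher and a lower pair.

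Of the receptor chains, 4 of 5 were well expressed, and IL-23R was the exception. Together with Ebi3 they made 5 of 10 family genes at or above 1 TPM in every library, beside 49.1% of protein-coding genes and 23.9% of all genes, so the share as such was near the background. The median of the mean levels was 4.10 TPM over the 10 genes, 1.21 TPM over protein-coding genes and 0 TPM over all genes.

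Il12rb1, the chain shared by the IL-12 and IL-23 receptors, was the most abundant receptor chain. It measured 90.6, 95.6, 86.9 and 88.0 TPM in replicates 1 to 4, a mean of 90.3 ± 3.87 TPM (SD, n = 4). The 4 libraries lay close together, within 1.10-fold. Its gene (ENSMUSG00000000791.9) lies on chromosome 8 at 70808449 to 70821424 in mm10. The other chain of the IL-12 receptor, Il12rb2, which signals through STAT4, measured 7.85, 8.06, 7.56 and 5.22 TPM in replicates 1 to 4. Replicate 4 was the lowest and lay apart from the other 3. Il12rb2 was lower than Il12rb1 in 4 of 4 libraries, with a log2 difference of -3.50 ± 0.23 (SD, n = 4). Its TPM was 0.0866, 0.0844, 0.0870 and 0.0593 times that of Il12rb1. Il12rb2 overlaps Serbp1, an abundant gene on the opposite strand, over 6419 bases. Serbp1 held 26803, 45177, 54033 and 20452 counts in replicates 1 to 4, against 431, 669, 846 and 199 for Il12rb2. The counts were made by strand, and a part of Serbp1 reads in the Il12rb2 counts was not tested.

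Il23r, the chain that joins IL-12Rb1 in the IL-23 receptor, had 5 counts in replicate 1, 0.139 TPM, and none in replicates 2, 3 and 4. These zeros allowed at most 0.0551, 0.0409 and 0.120 TPM, with 3 counts as the limit. The difference between Il23r and Il12rb1 was -6.46 ± 0.11 (log2, SD, n = 4). Il12rb2 exceeded Il23r by 2.97 ± 0.24 (log2, SD, n = 4), and was the higher in 4 of 4 libraries. Its TPM was 56.5 times that of Il23r in replicate 1 (95% counting interval 24.0 to 175), and at least 146-fold, 185-fold and 43.5-fold higher in replicates 2, 3 and 4.

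Il27ra, the ligand-specific chain of the IL-27 receptor, measured 66.7, 68.9, 38.4 and 37.7 TPM in replicates 1 to 4, a mean of 52.9 ± 17.2 TPM (SD, n = 4). Replicates 1 and 2 were high and nearly equal, and replicates 3 and 4 were low and nearly equal. Il6st, which encodes gp130, the signalling chain of the same receptor, measured 18.8, 21.2, 18.9 and 22.9 TPM and did not show that division. Il6st averaged 20.4 ± 1.98 TPM. The log2 difference of Il27ra and Il6st was 1.28 ± 0.52 (SD, n = 4), above 0 in 4 of 4 libraries. In TPM the ratio was 3.55 in replicate 1 (95% counting interval 3.38 to 3.73), 3.26 in replicate 2 (3.13 to 3.38), 2.03 in replicate 3 (1.95 to 2.11) and 1.65 in replicate 4 (1.54 to 1.76). The intervals of replicates 1 and 2 did not reach those of replicates 3 and 4. Those of replicates 3 and 4 did not reach each other either, and those of replicates 1 and 2 only met at 3.38. These intervals cover counting error only. Il6st has a merged exon length of 11099 bases against 3495 for Il27ra, and in counts scaled to library size alone the difference was -0.34 (log2), so the order of these chains rests on the length correction.

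Il12rb2 and Il6st, the chains described for the IL-35 receptor, were both present in all libraries. Il12rb2 was the lower in 4 of 4 libraries, with a log2 difference of -1.40 ± 0.36 (SD, n = 4), at 0.418, 0.381, 0.400 and 0.228 times the TPM of Il6st in replicates 1 to 4. The genes closest to Il6st in level by the same distance were Gpr55, Tprkb and Srek1ip1, with means of 20.4, 20.4 and 21.1 TPM.

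Across the family the order of mean levels was Ebi3, Il12rb1, Il27ra, Il6st, Il12rb2, Il12a, Il23a, Il27, Il23r and Il12b. Each of the first 5 was separated from the gene below it without overlap between libraries, and Il23a also lay above Il27 without overlap. The ranges of Il12a and Il23a, of Il27 and Il23r, and of Il23r and Il12b overlapped. Each of the 10 pairwise differences within a library, of which 8 are given above, had the same sign in 4 of 4 libraries. The remaining differences were 0.99 ± 0.37 for Il12a and Il12b and 0.45 ± 0.14 for Il23a and Il12b (log2, SD, n = 4). Every one had an exact two-sided sign-flip permutation p of 0.13 (rounded), before and after Benjamini-Hochberg adjustment over the 10 differences, the smallest that 4 libraries allow. Il12b had no count in any library, so its differences with Il12a and Il23a could not fall below 0, and their sign is no test. Where Il27 (replicates 1 and 3) or Il23r (replicates 2, 3 and 4) had no count, the sign was likewise fixed. Different genes are compared here, so the differences also carry how well each transcript was captured.

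**Figure D2:**
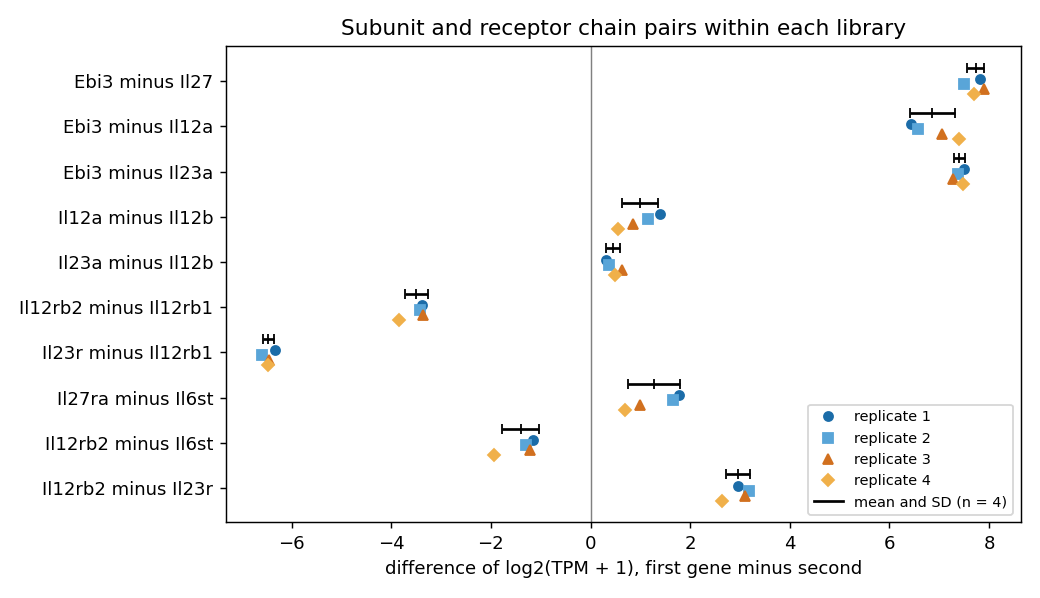
Difference of log2(TPM + 1) between the genes of each pair (first minus second) in replicates 1 to 4, with mean and SD as the black bar. All 4 libraries lie on the same side of 0 in every pair, which is fixed for the pairs with Il12b, a gene without counts. The pair of Il27ra and Il6st spreads from 0.69 to 1.78.

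The next question was which family genes differed between libraries by more than genes of their abundance do. Of the 10 genes, 7 had enough counts to be tested, and Il12b, Il27 and Il23r were left out by the filter on low counts. Il27ra was called (edgeR goodness-of-fit test with Benjamini-Hochberg adjustment over 13494 genes, adjusted p = 3.04e-07), and the other 6 were not. The call rate over all tested genes was 0.378%, or 51 genes, and the number called was 17 without replicate 1 and 23 without replicate 3. In log2 CPM (counts scaled to library size), Il27ra deviated from its mean by 0.43 and 0.39 in replicates 1 and 2 and by -0.38 and -0.44 in replicates 3 and 4. Its range of 0.86 compares with a median range of 0.31 over the 13494 genes. Il27ra was called without each replicate in turn, with an adjusted p of 2.85e-07 to 0.0134 over all 8 alternatives (edgeR).

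None of the other tested genes passed. The range over libraries was 0.08 for Il12rb1, 0.25 for Il6st, 0.27 for Ebi3, 0.63 for Il12rb2, 1.00 for Il23a and 1.71 for Il12a (log2 CPM). For each of these 6 the adjusted p was 0.9999 in the same test. Il12rb1, which also lies on chromosome 8, had a smaller range than Il27ra. Il12a and Il23a had wider ranges than Il27ra, from 8 to 46 counts per library.

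**Figure D3:**
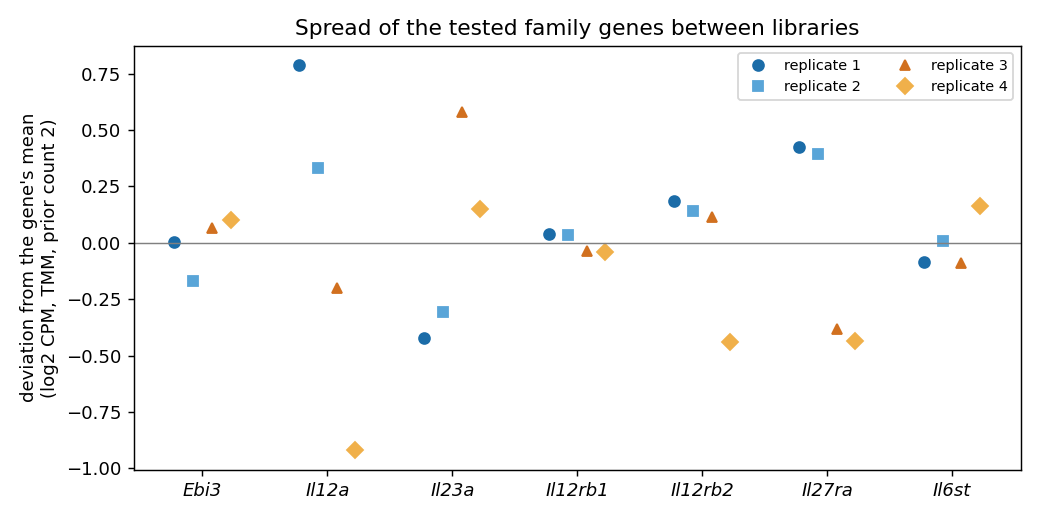
Deviation of log2 CPM from the gene's mean in replicates 1 to 4 for the 7 tested family genes. Il27ra divides into replicates 1 and 2 at 0.43 and 0.39 and replicates 3 and 4 at -0.38 and -0.44, while Il12rb1 lies between -0.04 and 0.04.

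The division of Il27ra ran with the sex-linked genes: Xist was high and Ddx3y near 0 in replicates 1 and 2, the libraries with more Il27ra. Gm42418 was also higher in replicates 1 and 2, at 11891 and 4335 TPM, against 2980 and 1555 TPM in replicates 3 and 4. The part of either in the Il27ra difference was not tested. Il27ra itself (ENSMUSG00000005465.9) is autosomal, on chromosome 8 at 84030294 to 84042589 in mm10. Of the 46 autosomal genes called, 11 had replicates 1 and 2 both above replicates 3 and 4, Il27ra among them, and 4 had both below. Both were above in 14.6% of all tested genes. Not all of the 11 divided into 2 pairs as Il27ra did. Penk deviated from its mean by 0.73, -0.13, -0.31 and -0.29 in replicates 1 to 4, and Malat1 by 1.15, -0.18, -0.44 and -0.52 (log2 CPM). Serpine2 was closer to Il27ra, at 0.34, 0.20, -0.33 and -0.21. The expressed protein-coding genes beside Il27ra, chosen after its values were seen, were not called in the same test. Samd1 measured 126, 131, 125 and 133 TPM in replicates 1 to 4, Rfx1 37.0, 30.8, 34.6 and 33.5 TPM, and Dcaf15 169, 169, 164 and 169 TPM. The remaining neighbours were lower and less even. The nearest, 2210011C24Rik, measured 1.37, 2.10, 1.01 and 1.41 TPM. For 1700067K01Rik the values were 2.93, 1.92, 2.37 and 1.27 TPM, and for Podnl1 17.2, 10.7, 13.7 and 14.8 TPM. A regional cause was not tested.

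**Figure D4:**
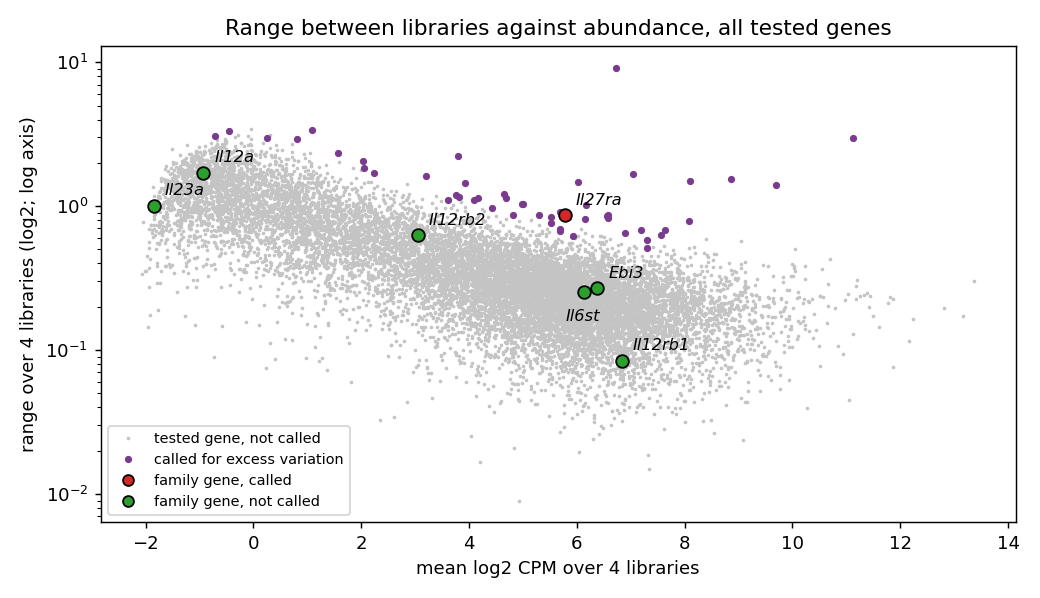
Range of log2 CPM over 4 libraries (log axis) against mean log2 CPM for the 13494 tested genes, with the called genes in purple and the 7 tested family genes labelled, Il27ra in red as called and the other 6 in green. Il27ra lies among the called genes, at a range of 0.86, and Il12rb1 lies low at 0.08.

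The kinases and transcription factors that these receptors use were all expressed. All 6 genes of that list reached 1 TPM in every library, beside 49.1% of protein-coding genes, with a median of 82.9 TPM. None of the 6 was called for excess variation (edgeR goodness-of-fit test), and 0 stood at an unadjusted p under 0.05. Over all 13494 tested genes, 0.378% were called and 5.97% had an unadjusted p under 0.05. For a list this short, 0 calls is the usual outcome. Stat3, which IL-23 and IL-27 signal through, stood at 227 ± 18.7 TPM and Jak1 at 158 ± 11.7 TPM. Jak2 and Tyk2, the kinases of the IL-12 and IL-23 receptors, stood at 112 ± 12.5 and 53.4 ± 3.01 TPM (SD, n = 4). Stat4, the main factor of IL-12 signalling, was the lowest of the list at 24.6 ± 3.08 TPM.

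Other cytokines and receptor chains that work with gp130 were uneven. Of 13 such genes, 5 reached 1 TPM in every library, beside 49.1% of protein-coding genes. In the edgeR goodness-of-fit test 0 of the 5 tested were called, beside 0.378% of all tested genes. At an unadjusted p under 0.05 stood 1, beside 5.97% of all tested genes. Lif, the leukaemia inhibitory factor, stood at 210.3 ± 6.76 TPM, close to Ebi3, and Osm, oncostatin M, at 80.9 ± 3.23 TPM. Il6ra, the ligand-binding chain of the IL-6 receptor, stood at 55.7 ± 5.37 TPM, above gp130 itself. Clcf1, a cytokine of this group, stood at 11.1 ± 3.49 TPM and was low in replicate 1, at 6.10 TPM against 11.4 to 13.8 TPM in the others (edgeR goodness-of-fit test, adjusted p = 0.0596, and 0.0133 to 0.99996 over 8 alternatives). Il6, Osmr and Cntfr had no count in any library, and Lifr, the partner of gp130 in the LIF receptor, averaged 0.0252 TPM.

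Genes taken as linked to the response to these cytokines were listed by cytokine. Whether they respond to it in these cells was not tested. In the IL-12 list 0 of 5 tested genes were called (edgeR goodness-of-fit test), beside 0.378% of all tested genes. At an unadjusted p under 0.05 stood 0 of the 5. Of the 7 genes, 5 reached 1 TPM in every library, beside 49.1% of protein-coding genes. They were led by the protease gene Furin at 310 ± 13.4 TPM, Il18r1 at 38.7 ± 3.72 TPM, Il18rap at 8.48 ± 0.451 TPM and Cxcr3 at 8.11 ± 1.06 TPM. Ifng averaged 0.223 TPM. In the IL-23 list 5 of 7 reached 1 TPM in every library, with the receptor gene Ccr6 at 338 ± 22.8 TPM, Il17f at 93.8 ± 23.2 TPM and Rora at 16.2 ± 1.88 TPM. These stood beside an Il23r at or below 0.139 TPM in every library, and Il22 had no count. Il17f was the only called gene of the 29 tested in the kinase, gp130 and response lists (edgeR goodness-of-fit test, adjusted p = 0.00133), at 126, 87.3, 71.0 and 90.7 TPM in replicates 1 to 4, highest in replicate 1 and not divided as Il27ra was. Its call was lost without replicate 1 (edgeR adjusted p = 0.99996) and without replicate 3 (adjusted p = 0.195), and over 8 alternatives its adjusted p ran from 4.82e-05 to 0.99996.

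In the IL-27 list 6 of 10 reached 1 TPM in every library, led by Cd274 at 116 ± 13.8 TPM, Lag3 at 67.8 ± 11.6 TPM, Socs3 at 54.4 ± 3.73 TPM and Maf at 22.7 ± 3.08 TPM. Il10 and Il21, cytokine genes of the list, averaged 0.340 and 0.00161 TPM. None of the 7 tested genes was called (edgeR goodness-of-fit test), beside 0.378% of all tested genes. At an unadjusted p under 0.05 in that test stood 3 of the 7, beside 5.97% of all tested genes. Cd274 measured 125, 129, 109 and 99.6 TPM in replicates 1 to 4, and Lag3 52.1, 65.9, 75.4 and 77.7 TPM. Maf, the other gene at an unadjusted p under 0.05, measured 24.7, 25.3, 18.5 and 22.6 TPM. In log2 CPM, 5 of the 7 tested genes had replicates 1 and 2 both above replicates 3 and 4 (Maf, Prdm1, Ahr, Irf1 and Cd274, named after their values were seen). For 1 gene (Lag3) both were below, and none of these differences passed the test. Replicates 1 and 2 were both above in 14.6% of all tested genes. The count was 1 of 6 tested genes in the kinase list, 1 of 5 in the gp130 list, 1 of 5 in the IL-12 list and 2 of 6 in the IL-23 list. The lists were chosen with earlier results of these data known, so these counts are not a test. Prdm1, Ahr and Irf1 stood at an unadjusted p of 0.463, 0.632 and 0.877 (edgeR goodness-of-fit test). A link of the IL-27 list to the Il27ra division was not tested. Il10 was counted only in replicates 2 and 3. The median level was 8.11 TPM in the IL-12 list, 16.2 TPM in the IL-23 list and 16.7 TPM in the IL-27 list.

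Markers of the cells that are the usual source of IL-12, IL-23 and IL-27 were counted beside these values. Of 8 dendritic cell markers 2 reached 1 TPM in every library, Cd74 at 548 ± 16.2 TPM and Zbtb46 at 4.26 ± 0.491 TPM. Clec9a and Siglech had no count, and Xcr1, Flt3 and Itgax averaged 0.0103 to 0.0844 TPM. The summed level of the 8 ranged from 528 to 563 TPM over the libraries. Of 9 macrophage and neutrophil markers 2 did, Cd68 at 7.45 ± 1.25 TPM and Adgre1 at 1.75 ± 0.721 TPM. Their sum ranged from 7.85 to 11.1 TPM, S100a8 and S100a9 had no count, and Lyz2 held 1 count in all.

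Of 6 B cell markers 1 did, Cd79b at 5.37 ± 1.02 TPM, with a sum of 5.90 to 7.81 TPM. Of 4 NK cell markers 2 did, Eomes at 1.96 ± 0.496 TPM and Klrd1 at 1.62 ± 0.654 TPM, with a sum of 3.10 to 4.01 TPM and no count of Ncr1. The sums of the macrophage, B cell and NK lists lay below Ebi3, Il12rb1 and Il27ra in every library. That of the dendritic list, nearly all of it Cd74, lay above them in every library. Each of these sums lay above Il12a, at most 1.62 TPM, and Il23a, at most 0.543 TPM, in every library. Which cells held the Il12a and Il23a transcripts was not tested. In bulk RNA, fewer cells with a transcript and less transcript per cell cannot be told apart, which bears on the low values of Il12a and Il23a.

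**Figure D5:**
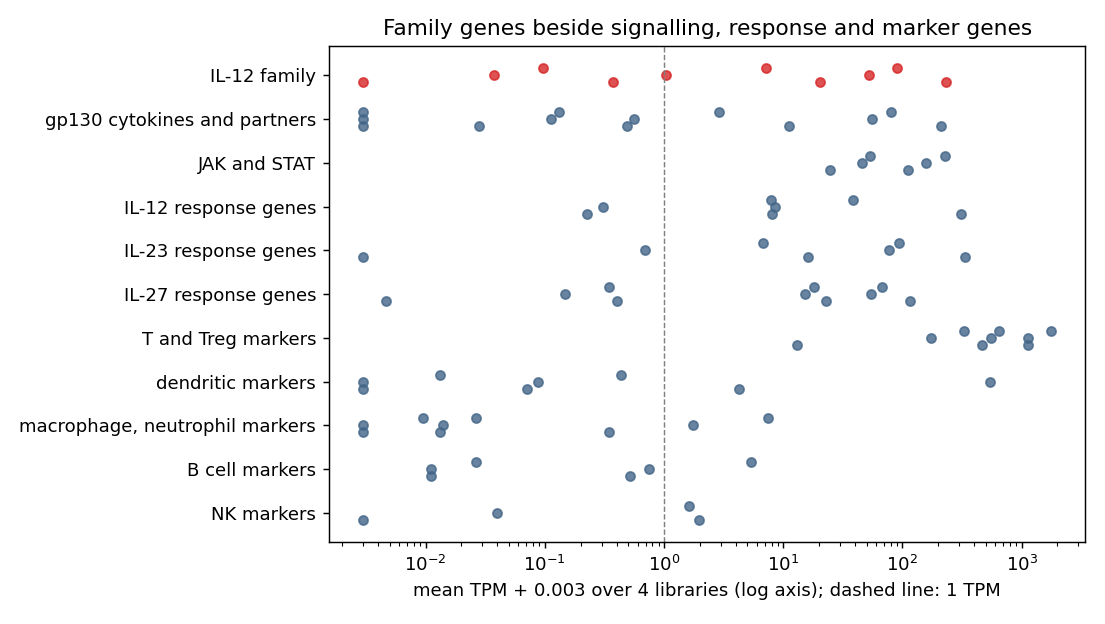
Mean TPM over 4 libraries (log axis, with 0.003 added so that genes at 0 can be drawn) of the 10 family genes in red and of the signalling, response and marker lists in blue. The dashed line is 1 TPM; all 6 JAK and STAT genes lie to its right, and most macrophage, B cell and dendritic cell markers lie to its left.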

How the data were processed

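The authors deposited unnormalized counts per gene. Per the file headers, featureCounts 1.4.6-p4 counted read pairs over GENCODE M13 exons, from alignments whose names hold the word star; the labels name mm10. The header records both ends mapped and the reverse strand setting (2). It shows no option that adds reads of several places or several genes. Read trimming: not given in the sources used here. Assay labels say total RNA but link a library protocol for poly(A)+ RNA. The deposited text notes were not used.

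Symbols came from GENCODE M21, which matched 50376 of 50600 genes; 224 had none. TPM was computed from the deposited counts and the merged exon length in bases in the same files, and values are mean ± SD over 4 libraries. Pairs of genes were compared within a library on log2(TPM + 1) with a sign-flip permutation test, exact and two-sided. The test for excess variation used edgeR 4.0.16 under R 4.3.3, with TMM scaling and filterByExpr at a minimum count of 10. It took an intercept-only design, trended dispersion and a goodness-of-fit test per gene, called at an adjusted p under 0.05. The procedure was tested on simulated counts in which each changed gene differed in a single library. A division into pairs, as for Il27ra, was not simulated. Intervals are exact at 95%. All family genes were named; in each list, those highest in mean TPM, those called and those without counts were named, except some that are not reported here. The members and lists were chosen with earlier results of these data known. Alternatives were another pseudocount, CPM, the longest transcript as length, other thresholds, scalings, filters and dispersions, and each replicate left out.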

Additional observations from a re-analysis of the deposited data

Results flagged for a closer look

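Of 96 values examined, 10 had a library apart from the rest of its group by the test of Dixon. Chance alone gives about 1 in 20 for normally spread values, but a gene counted in only 1 library is always flagged. The differences with Il12rb2 also share that gene, so the 10 cannot be set against that rate. For the family, the flagged values were Il23r in replicate 1, at 0.139 TPM against 0 in the others, and Il12rb2 in replicate 4 relative to its partner chains. The difference of Il12rb2 and Il12rb1 was -3.84 in replicate 4 and -3.41 to -3.36 in the others, and that of Il12rb2 and Il6st was -1.94 and -1.29 to -1.16 (log2). Il12rb2 itself was not called for excess variation. Among the listed genes, Rora at 18.999 TPM and Cd79a at 1.04 TPM were highest in replicate 2, where Cd74 was lowest at 524.04 TPM. Il11 had 26 counts in replicate 3, 0.438 TPM, and 0 in the others. The remaining values rest on 1 to 4 counts: Il21 at 0.00644 TPM and Lyz2 at 0.0257 TPM in replicate 3 and Xcr1 at 0.0411 TPM in replicate 2, each with no count in the others.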

How the results depend on the processing

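The mean difference of Il27ra and Il6st changed sign without length correction, at -0.34 (log2 CPM) against 1.28 with it. In CPM, Il27ra was the lower in replicates 3 and 4 and stayed the higher in replicates 1 and 2. The other 9 pairwise differences kept their sign under a pseudocount of 0.1, in CPM and with the longest annotated transcript as length. They also kept it without each replicate. For the differences with Il12b, which had no count, the sign could not change. With Il27ra and Il6st the range without each replicate was 1.11 to 1.47. The number of family genes at the expression threshold was 5 under every alternative, at 0.5 TPM, 2 TPM and 1 CPM and without each replicate. The number of genes called for excess variation was 51, against 937 with a common dispersion, where the cause was not tested, 38 with no filter on low counts and 51 with DESeq2 size factors. It was 17 without replicate 1, 23 without replicate 3 and 56 without replicate 2, the lowest and highest without a replicate being 17 and 56. Another estimate of the trend, chosen after seeing the data, gave 58 calls. Il27ra was called in all 8 alternatives (edgeR goodness-of-fit test, adjusted p from 2.85e-07 to 0.0134) and the other members in none of those that tested them. Il17f was not called with a common dispersion (adjusted p = 0.157) or without replicates 1 or 3, and Clcf1 was called with a common dispersion (0.0133) and with the other trend (0.0159). No paired analysis was possible because the libraries form a single group. Depth limits Il12b, Il27 and Il23r, whose values rest on 0 to 5 counts per library.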
